A study of Homo sapiens with 12 samples.

Results

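Hepatocyte transcription factors are the liver-enriched regulators that switch on and hold the gene program of the hepatocyte, and 9 of them were examined here: HNF4A, FOXA1, FOXA2, FOXA3, CEBPA, NR1H4, NR5A2, NR0B2 and PROX1. Members were taken as the probe sets whose only annotated gene symbol was one of these names. Of the 9 genes, 7 had such a probe set, 1 each, out of 18417 genes with a probe set of a single symbol. HNF4A and NR1H4 had none in the platform annotation and were not analysed here. All 7 measured members passed the filter on dim genes, which kept 13813 genes for testing.

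The cells were HepG2, an established human hepatoma line that keeps many hepatocyte traits. One line expressed a hairpin that knocks down p53 and is called sh-p53, the other a control hairpin and is called sh-con. Treatment lasted 24 h, with 10 uM Nutlin, which frees p53 from its ubiquitin ligase MDM2, with 0.5 mM AICAR, which activates the energy sensor AMPK, or with DMSO as solvent control. The groups, each of 2 Affymetrix arrays from biological duplicates, were therefore sh-p53 with Nutlin, sh-con with Nutlin, sh-p53 with AICAR, sh-con with AICAR, sh-p53 with DMSO and sh-con with DMSO. Because there was 1 line per hairpin, an effect of the knockdown and a difference between the lines cannot be told apart. Differences between cells also cannot be separated here into fewer cells of a kind and less RNA per cell.

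As background, HNF4A is a nuclear receptor that binds DNA as a homodimer at many hepatocyte genes, the FOXA proteins are forkhead pioneer factors that open liver enhancers, and CEBPA is a basic leucine zipper factor of differentiated, slowly dividing hepatocytes. NR1H4, also called FXR, is the bile acid receptor and induces NR0B2, also called SHP. NR0B2 lacks a DNA-binding domain and represses other receptors, among them NR5A2 (LRH-1), an activator of bile acid synthesis genes. PROX1 is a homeobox protein needed for liver outgrowth and acts as a corepressor of HNF4A and NR5A2.

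RefSeq start-site windows on assembly GRCh38.p14, from 250 bases before to 50 bases after a gene's start, were at hand for 6 of the 9 genes and gave 8 windows of 300 bases. Both windows of NR5A2 are shown, since NR5A2 was the member that differed most between the lines. They lie on the plus strand at chr1:200027460-200027759 and chr1:200042341-200042640. Capitals mark the p53 half-site in the upstream window and the forkhead word TGTTTAC, read on the minus strand, in the downstream one.
NR5A2 upstream start: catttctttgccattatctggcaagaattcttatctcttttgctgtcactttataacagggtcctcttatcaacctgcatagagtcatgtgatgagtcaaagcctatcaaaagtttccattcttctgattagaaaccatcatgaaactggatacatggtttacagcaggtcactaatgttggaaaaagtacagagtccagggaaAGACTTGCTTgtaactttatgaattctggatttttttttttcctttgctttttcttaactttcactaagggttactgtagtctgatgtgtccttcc
NR5A2 downstream start: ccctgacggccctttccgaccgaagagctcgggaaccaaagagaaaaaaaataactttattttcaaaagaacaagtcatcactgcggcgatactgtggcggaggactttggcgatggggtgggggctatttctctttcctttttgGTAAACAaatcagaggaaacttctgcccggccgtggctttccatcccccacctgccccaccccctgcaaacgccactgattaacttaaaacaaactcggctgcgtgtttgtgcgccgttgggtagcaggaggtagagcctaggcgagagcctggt
The half-site began 46 bases before the upstream start, and the forkhead word began 105 bases before the downstream start. The words searched on both strands of the 8 windows were AAGGTCA (the NR5A2 word), TGTTTAC (FOXA), TTGCGCAA (CEBPA) and the p53 half-site, whose strands overlap in 1 place because it reads nearly the same on both. Those 2 matches were the ones found. FOXA2, NR0B2 and PROX1 had no window and were not searched. Over all 35116 windows of the same length, the half-site was present in 6.63%, TGTTTAC in 3.42%, AAGGTCA in 3.92% and TTGCGCAA in 0.151%. A match describes letters in a window and not a bound site.

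Duplicate arrays correlated at r between 0.990 and 0.996 within groups. The 16 hepatocyte markers all lay above the filter, with ALB, the plasma carrier protein, at the 100th percentile and TTR, the thyroxine carrier, at the 99.4th percentile of genes by mean level. The hairpin was checked through 3 p53 targets, CDKN1A, MDM2 and TP53I3. CDKN1A encodes a cyclin-dependent kinase inhibitor. CDKN1A had log2 values of 7.61 and 7.63 in sh-p53 with Nutlin against 9.92 and 9.76 in sh-con with Nutlin, and 6.14 and 6.32 in sh-p53 with DMSO against 7.06 and 6.93 in sh-con with DMSO. Its arrays did not overlap between the lines. MDM2 was lower in sh-p53 by a log2 change of -0.96 with Nutlin, -1.21 with AICAR and -0.68 with DMSO, and still rose by 1.32 with Nutlin in sh-p53. TP53I3, a quinone oxidoreductase, had a log2 change of -3.40 with Nutlin and -2.84 with AICAR, both called, and its difference of -0.35 with DMSO was not called (adjusted p = 0.839). In sh-p53, 2 of the 3 were still called higher than in DMSO with each compound. With Nutlin these were CDKN1A (1.39) and MDM2, beside 0.0796% of all genes called. With AICAR they were CDKN1A (1.76) and TP53I3 (0.57), beside 37.8% of all genes called. The hairpin's target transcript was not analysed here.

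The plot of log2 values by array shows the 7 measured factors side by side. NR5A2 and NR0B2 spread over more than 2 log2 units between group means, PROX1 over about 1, and the FOXA genes and CEBPA over far less. The span of the 6 group means was 2.42 for NR0B2 and 2.29 for NR5A2, and 2.31% and 2.65% of tested genes had a span at least as wide. PROX1 spanned 1.05, reached by 19.8% of genes. The spans were 0.55 for FOXA2, 0.42 for FOXA1, 0.22 for CEBPA and 0.19 for FOXA3, against a median of 0.59 over all genes tested.

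**Figure D1:**
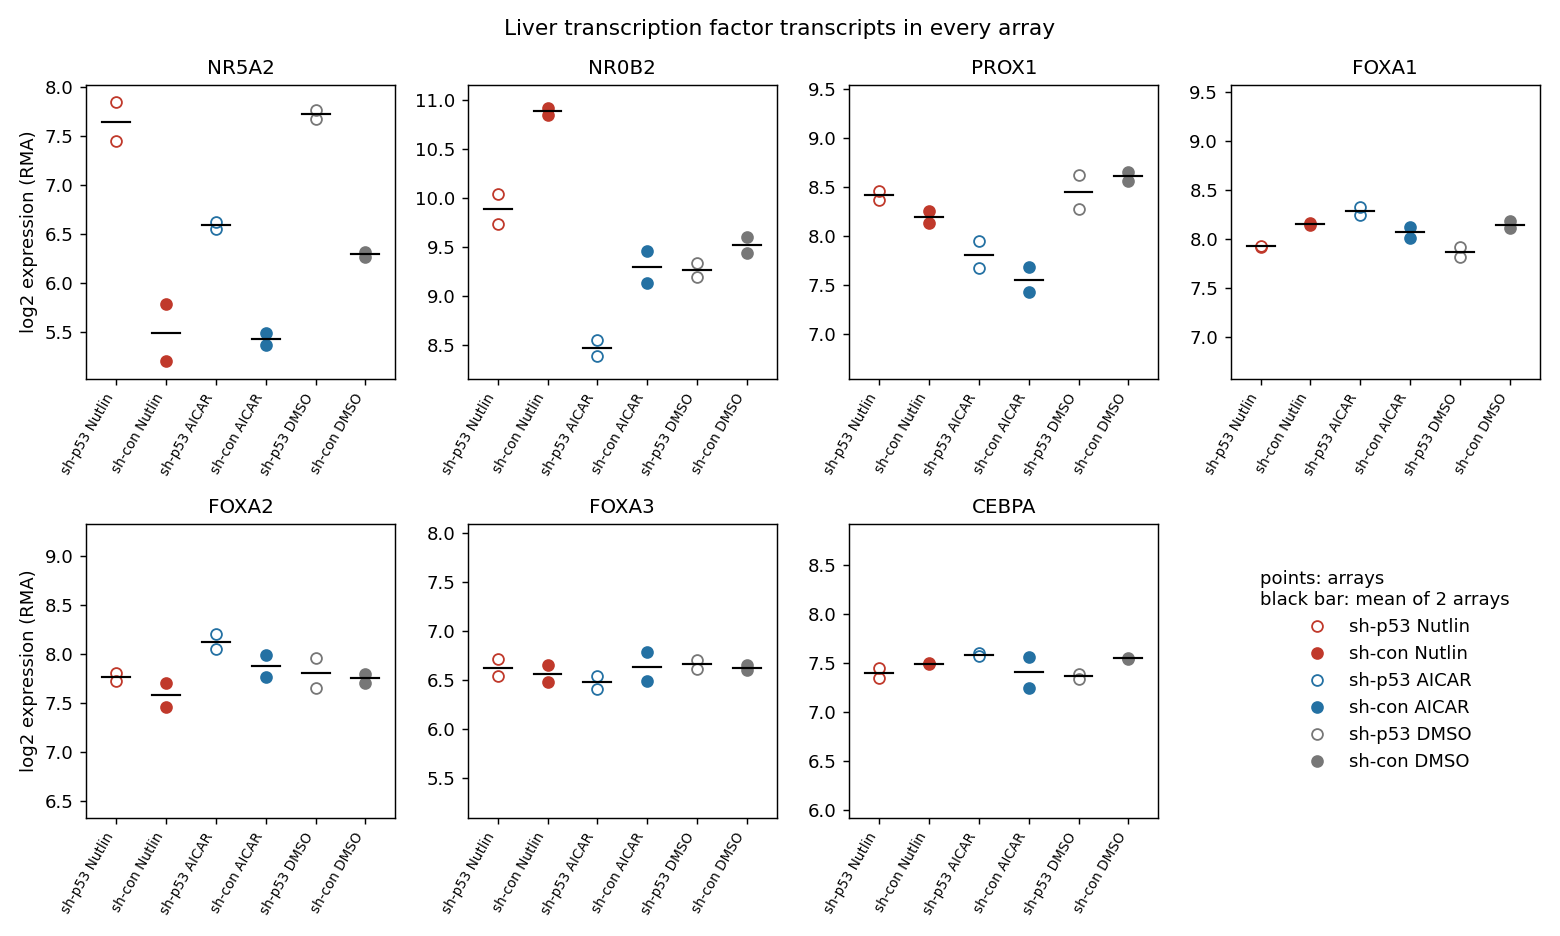
Log2 expression of the 7 measured hepatocyte transcription factors on each of the 12 arrays, 1 panel per gene, with the groups along the horizontal axis and each point 1 array. NR5A2 separates by line, NR0B2 is highest in sh-con with Nutlin at 10.85 and 10.92, and FOXA3 and CEBPA stay within narrow bands.

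NR5A2, the nuclear receptor that drives bile acid and steroid synthesis genes, was higher in sh-p53 than in sh-con under every treatment. Its log2 values were 7.85 and 7.45 in sh-p53 with Nutlin against 5.79 and 5.20 in sh-con with Nutlin, and 6.56 and 6.63 in sh-p53 with AICAR against 5.49 and 5.37 in sh-con with AICAR. With DMSO they were 7.68 and 7.77 in sh-p53 against 6.32 and 6.27 in sh-con. The lines did not overlap in any treatment. In limma's fit the gap was 2.15 ± 0.18 (SE, 2 arrays against 2, adjusted p = 4.07e-08), or 4.45-fold, with Nutlin. It was 1.16 ± 0.18 with AICAR (2.24-fold, adjusted p = 0.000393) and 1.43 ± 0.18 with DMSO (2.70-fold, adjusted p = 0.000189). Of the 7 measured members, NR5A2 was the only one called between the lines in DMSO, where 0.644% of all genes tested were called, 0.261% as higher. With Nutlin, NR5A2 rose and NR0B2 fell in sh-p53 relative to sh-con, 2 of 7 members against 21.4% of all genes. With AICAR the same pair was called, 2 of 7 against 8.83% of all genes.

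NR5A2 fell with AICAR in both lines and with Nutlin in sh-con. In sh-con it fell by 0.80 ± 0.18 (adjusted p = 0.00223) with Nutlin and by 0.86 ± 0.18 (adjusted p = 0.000818) with AICAR relative to DMSO. The Nutlin call depended on sh-con Nutlin replicate 2, the lower array: without it the change was -0.51 (adjusted p = 0.0727), and without replicate 1 it was -1.09 (adjusted p = 0.000347). In sh-p53 it fell by 1.13 ± 0.18 (adjusted p = 6.94e-05) with AICAR. With Nutlin in sh-p53 the change was -0.08 ± 0.18 (adjusted p = 0.984), with arrays that overlapped those in DMSO. The Nutlin response of sh-p53 minus that of sh-con was 0.72 ± 0.25, with a 95% interval of 0.20 to 1.24, and missed the threshold (adjusted p = 0.0936). It passed when sh-con Nutlin replicate 1 (adjusted p = 0.0140) or sh-p53 Nutlin replicate 2 (adjusted p = 0.0413) was left out. Ordered by mean, sh-p53 with DMSO and with Nutlin overlapped at the top. Below them came sh-p53 with AICAR, then sh-con with DMSO, and at the bottom sh-con with Nutlin and with AICAR, which overlapped each other.

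NR0B2, the corepressor that bile acid signalling induces, moved in another pattern. Its log2 values were 10.04 and 9.74 in sh-p53 with Nutlin against 10.85 and 10.92 in sh-con with Nutlin, and 8.55 and 8.39 in sh-p53 with AICAR against 9.46 and 9.14 in sh-con with AICAR. With DMSO they were 9.20 and 9.34 in sh-p53 against 9.60 and 9.44 in sh-con. The arrays of the lines were apart in each treatment, least in DMSO, which describes 2 arrays per group and is not a test. NR0B2 was 1.99-fold lower in sh-p53 than in sh-con with Nutlin (log2 change -0.99 ± 0.15, adjusted p = 0.000105) and 1.77-fold lower with AICAR (-0.83 ± 0.15, adjusted p = 0.00243). With DMSO the log2 change was -0.25 ± 0.15 (adjusted p = 0.999).

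In sh-con, NR0B2 rose 2.57-fold with Nutlin over DMSO (log2 change 1.36 ± 0.15, adjusted p = 2.19e-06), the opposite direction to NR5A2. NR0B2 and NR5A2 were the 2 of 7 members called there, beside 30.3% of all genes. In sh-p53 the Nutlin change of NR0B2 was 0.62 ± 0.15 and missed the threshold (adjusted p = 0.195). It passed with limma-trend (adjusted p = 0.0494) and in a fit of only the groups compared (adjusted p = 0.0446). None of the 7 members was called by limma for Nutlin in sh-p53, 1 had an unadjusted p under 0.05, and 0.0796% of all genes were called. The Nutlin response of NR0B2 in sh-p53 minus that in sh-con was -0.74 ± 0.22 (adjusted p = 0.0451). This was the only member called for that difference, 1 of 7 against 7.4% of all genes (2.73% in the same direction), and it stood close to the threshold. It was lost without any 1 of the 8 arrays concerned except sh-p53 Nutlin replicate 1. NR0B2 fell 1.74-fold with AICAR in sh-p53 (-0.80 ± 0.15, adjusted p = 0.000531), while in sh-con the change was -0.22 ± 0.15 (adjusted p = 0.254). The difference of the AICAR responses was -0.57 ± 0.22 (adjusted p = 0.246), so the lines were not shown to differ in it. By mean, sh-con with Nutlin was highest and sh-p53 with Nutlin next. The groups sh-con with DMSO, sh-con with AICAR and sh-p53 with DMSO followed. Of these, sh-con with AICAR overlapped both of the others, which did not overlap each other. The group sh-p53 with AICAR was lowest.

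Markers of other cell types moved with Nutlin, and ACTA2 also with the line. The summed linear level of the 8 endothelial markers was 434 to 517 in sh-con with Nutlin against 162 to 172 in sh-con with DMSO, and 176 to 192 in sh-p53 with Nutlin. Of the 8, LYVE1, a hyaluronan receptor, and ENG, a TGF-beta coreceptor, lay above the filter. Both rose with Nutlin in sh-con, where 30.3% of all genes were called. LYVE1 passed the filter only through sh-con with Nutlin, where it rose by 3.65, so its passing and its rise are not separate results. PECAM1 and VWF, defining markers of endothelium, lay below the filter. The 8 fibroblast and stellate markers summed to 1717 to 1926 in sh-con with Nutlin against 621 to 643 in sh-con with DMSO, and to 629 to 655 in sh-p53 with Nutlin against 407 to 446 in sh-p53 with DMSO. ACTA2, smooth muscle actin, was the 1 of these markers called. It rose with Nutlin by 1.35 in sh-p53 (adjusted p = 0.000518) and by 2.20 in sh-con. Of all genes, 0.0796% were called with Nutlin in sh-p53 and 30.3% in sh-con. ACTA2 was also lower in sh-p53 than in sh-con, by a log2 change of -2.15 with Nutlin, -1.88 with AICAR and -1.30 with DMSO (adjusted p = 0.000189). Their part in the NR0B2 and NR5A2 results was not tested.

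PROX1, the corepressor of HNF4A and NR5A2, fell with AICAR in both lines. Its log2 values were 7.67 and 7.94 with AICAR against 8.62 and 8.27 with DMSO in sh-p53, and 7.68 and 7.43 with AICAR against 8.66 and 8.56 with DMSO in sh-con. The AICAR arrays lay below the DMSO arrays in each line. In sh-p53 it fell by 0.64 ± 0.16 on the log2 scale (SE, adjusted p = 0.00348) and in sh-con 2.07-fold (log2 change -1.05 ± 0.16, adjusted p = 4.1e-05). The call in sh-p53 was lost without sh-p53 DMSO replicate 1 (adjusted p = 0.0712) or sh-p53 AICAR replicate 1 (adjusted p = 0.0606). With Nutlin, PROX1 had 8.36 and 8.46 in sh-p53 and 8.25 and 8.13 in sh-con. The Nutlin change in sh-con, -0.41 ± 0.16, lay just outside the threshold (adjusted p = 0.0518), and in sh-p53 it was -0.04 (adjusted p = 0.989). The sh-con change passed with median centring (adjusted p = 0.0424), a stricter filter (0.0327), limma-trend (0.0345) and only the groups compared (0.0173). It was not called with any 1 array left out, where the change ran from -0.47 to -0.36. Over all alternatives the sh-con change ran from -0.47 to -0.24. PROX1 was not called between the lines in any treatment, where its differences ran from -0.16 to 0.25. At the top of its order, sh-p53 with DMSO overlapped both sh-con with DMSO and sh-p53 with Nutlin, which did not overlap each other. The AICAR groups overlapped at the bottom.

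The FOXA genes and CEBPA varied over narrower ranges, and 1 of these 4 genes was called in any comparison. FOXA1, the forkhead pioneer factor shared by liver and hormone-responsive tissues, had 8.25 and 8.33 in sh-p53 with AICAR against 7.82 and 7.92 in sh-p53 with DMSO. Both of these AICAR arrays lay above all other arrays, and sh-con had 8.12 and 8.02 with AICAR against 8.19 and 8.11 with DMSO. FOXA1 rose with AICAR in sh-p53 by 0.42 ± 0.13 on the log2 scale (1.34-fold, adjusted p = 0.0162), and in sh-con the change was -0.08 ± 0.13 (adjusted p = 0.642). Over all alternatives the change in sh-p53 ran from 0.27 to 0.57. The call in sh-p53 was lost with arrays centred on their medians, where the change was 0.27 (adjusted p = 0.194). It was also lost without sh-p53 DMSO replicate 1 (adjusted p = 0.107) or sh-p53 AICAR replicate 2 (adjusted p = 0.0831). With Nutlin, FOXA1 had 7.92 and 7.93 in sh-p53 against 8.17 and 8.15 in sh-con, lines that did not overlap but differed by -0.23 ± 0.13 (adjusted p = 0.224). After quantile normalisation this difference was -0.32 and passed (adjusted p = 0.0293). The difference of the AICAR responses, 0.50 ± 0.18 with a 95% interval of 0.12 to 0.88, was not called (adjusted p = 0.225).

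With AICAR, 4 of 7 members were called in sh-p53 (FOXA1 higher, and NR5A2, NR0B2 and PROX1 lower) and 2 of 7 in sh-con (NR5A2 and PROX1, both lower). The share among all genes was 37.8% in sh-p53 and 37.8% in sh-con, and 23.2% of all genes were lower in sh-con. No member was called by limma for the difference of the AICAR responses, 2 had an unadjusted p under 0.05, and 1.01% of all genes were called.

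FOXA2, which shares the forkhead domain with FOXA1 and acts in glucose and bile acid genes, had 8.20 and 8.05 in sh-p53 with AICAR against 7.96 and 7.66 in sh-p53 with DMSO. In sh-con it had 7.76 and 7.99 with AICAR against 7.71 and 7.80 with DMSO, so the sh-con groups overlapped. With Nutlin it had 7.81 and 7.72 in sh-p53 and 7.70 and 7.46 in sh-con. FOXA2 was called in none of the 11 comparisons, its AICAR change in sh-p53 being 0.32 ± 0.15 (adjusted p = 0.104). FOXA2 passed for that change after quantile normalisation over the genes tested (adjusted p = 0.0381). It passed for Nutlin against AICAR in sh-p53 with the same normalisation (0.0492) and with a stricter filter (0.0446). FOXA3, the forkhead member abundant in adult liver, ran from 6.40 to 6.78 over the 12 arrays, and each neighbour in the order of its group means overlapped the next. CEBPA ran from 7.25 to 7.60, its lowest array being sh-con with AICAR replicate 1, and its duplicate read 7.57. Neither FOXA3 nor CEBPA was called in any of the 11 comparisons.

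**Figure D2:**
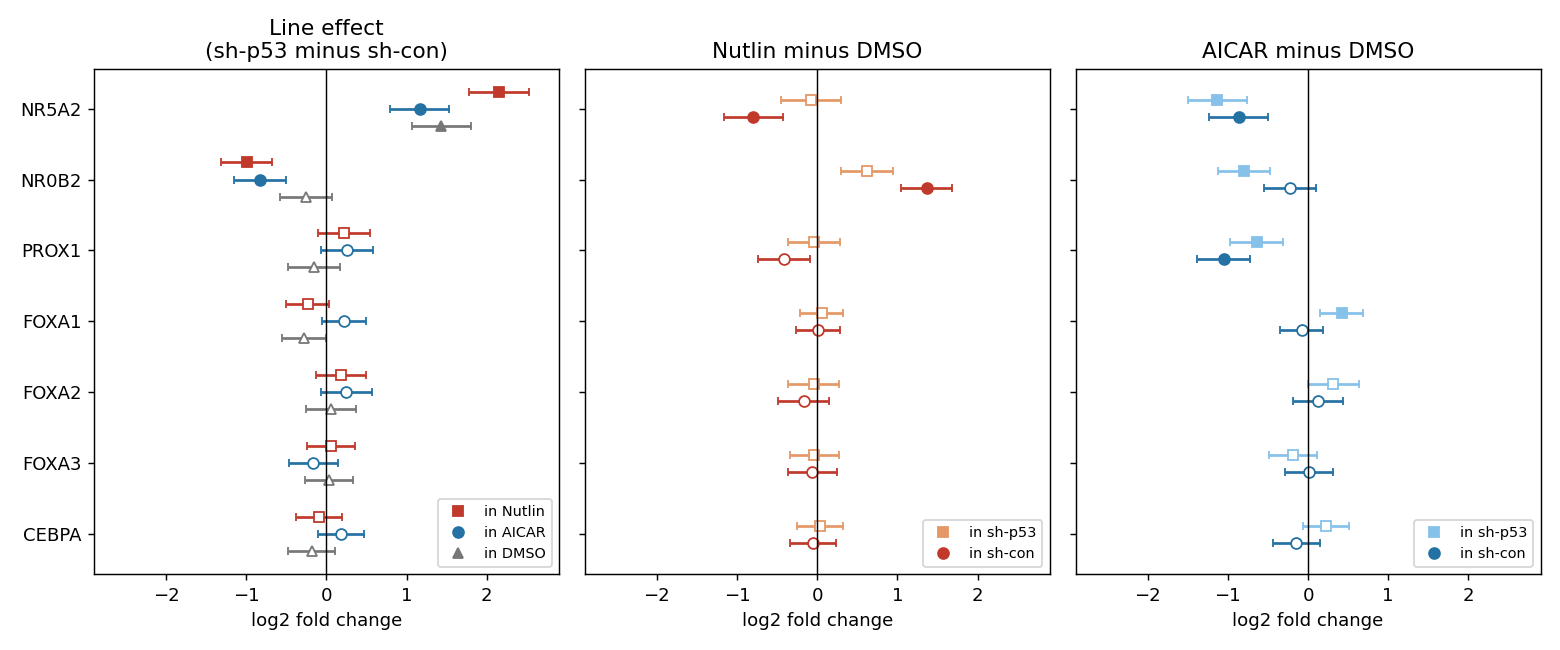
Log2 fold changes of the 7 factors with 95% intervals of the limma fit, by comparison; filled points passed an adjusted p of 0.05. NR5A2 lies to the right of 0 between the lines in every treatment (1.16 to 2.15), NR0B2 moves to the right with Nutlin in sh-con (1.36), and the intervals of FOXA3 and CEBPA include 0 in each comparison plotted.

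Nutlin and AICAR were also set directly against each other. In sh-p53, NR0B2 had a 2.68-fold higher level with Nutlin than with AICAR (log2 difference 1.42 ± 0.15, adjusted p = 1.77e-06), and in sh-con a 3.01-fold higher level (1.59 ± 0.15, adjusted p = 2.37e-07). PROX1 was higher with Nutlin by 0.60 (adjusted p = 0.00558) in sh-p53 and by 0.64 (adjusted p = 0.0034) in sh-con. Without sh-p53 AICAR replicate 1 the PROX1 call in sh-p53 was lost (adjusted p = 0.0836). NR5A2 was higher with Nutlin by 1.06 ± 0.18 in sh-p53 (adjusted p = 0.000151), while in sh-con its 2 compounds differed by 0.06 ± 0.18 (adjusted p = 0.837). FOXA1 was lower with Nutlin than with AICAR in sh-p53 by a log2 change of -0.36 ± 0.13 (adjusted p = 0.0366), a call lost without any 1 of the 4 arrays concerned. In all, 4 of 7 members were called in sh-p53 beside 34.6% of all genes, and 2 of 7 in sh-con beside 34.8%. Across the 11 comparisons, NR5A2 and NR0B2 were each called in 7, PROX1 in 4 and FOXA1 in 2.

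Among the 3 members that spanned at least 1 log2 unit, the genes with the most similar centred group means were found by the root mean square difference over the 6 groups. For NR0B2 these were JAML (0.131), SAT2 (0.162) and CYP19A1 (0.162), the last encoding aromatase. For NR5A2 they were NEGR1 (0.281), AKR1D1 (0.283), which encodes a reductase of bile acid synthesis, and UNC93A (0.304). For PROX1 they were XPO6 (0.045), CTDSP1 (0.0516) and ECPAS (0.0552). Between members, CEBPA and FOXA1 lay closest (0.0735), and NR0B2 and NR5A2 lay farthest apart (1.32). These differences were not scaled by span, so narrow spans give small values and wide spans can give large ones.

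Of 47 other liver transcription factors and nuclear receptors, 38 were tested. With AICAR in sh-con, 2 rose and 17 fell (median log2 change -0.23, against 0.04 over all genes), and in sh-p53 6 rose and 12 fell (median -0.06, against 0.07). Of all genes, 37.8% were called in each line. HNF4G, the close relative of HNF4A, had 5.12 and 4.94 with AICAR against 7.26 and 7.35 with DMSO in sh-p53, and 5.07 and 4.50 with AICAR against 7.24 and 7.29 with DMSO in sh-con. HNF4G fell by 2.27 in sh-p53 (adjusted p = 9.38e-08) and fell by 2.48 in sh-con (adjusted p = 3.14e-08). THRB, the thyroid hormone receptor beta, had 5.44 and 5.13 with AICAR against 7.32 and 7.05 with DMSO in sh-p53, where it fell by 1.90 (adjusted p = 1.04e-07). In sh-con it fell by 1.96 (adjusted p = 6.31e-08). TCF7L2, the transcription factor of the Wnt pathway, fell by 1.46 in sh-p53 and fell by 1.40 in sh-con. PPARG, the receptor of fat cell differentiation, fell by 1.21 in sh-p53 and fell by 1.01 in sh-con. PPARGC1A, the coactivator of fasting genes, fell by 1.07 in sh-p53 and fell by 1.10 in sh-con.

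**Figure D3:**
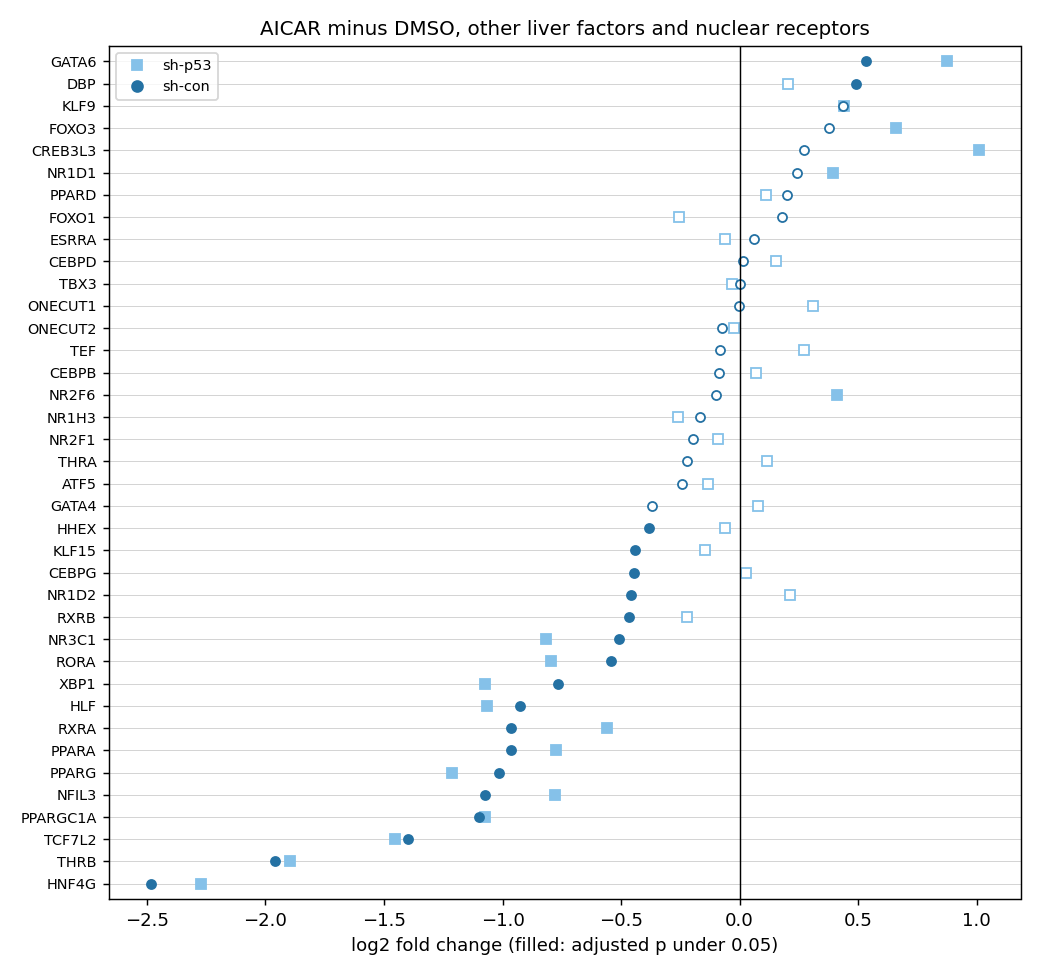
AICAR responses (log2 fold change against DMSO) of the other liver transcription factors and nuclear receptors tested, in sh-p53 and sh-con. HNF4G sits lowest at -2.27 in sh-p53 and -2.48 in sh-con, followed by THRB at -1.90 and -1.96.

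In Nutlin against AICAR, 13 of the 38 genes were higher and 4 lower in sh-p53 (34.6% of all genes called), and 16 higher and 1 lower in sh-con (34.8%). With Nutlin against DMSO in sh-con, 7 rose and 3 fell (30.3% of all genes called), with HHEX, a homeobox factor of liver bud growth, at -1.17 and HNF4G at -0.99. HHEX had 9.49 and 9.30 in sh-p53 with Nutlin against 8.53 and 8.25 in sh-con with Nutlin, and 9.61 and 9.59 in sh-p53 with DMSO against 9.70 and 9.42 in sh-con with DMSO. It was the 1 gene of the 38 called for the difference of the Nutlin responses (0.96, adjusted p = 0.00552), beside 7.4% of all genes. Between the lines with Nutlin, 2 rose and 7 fell in sh-p53 (21.4% of all genes called), with NR3C1, the glucocorticoid receptor, at -1.05 (adjusted p = 7.8e-05), TBX3 at -0.89 and PPARGC1A at -0.71. Between the lines with AICAR 3 rose and 2 fell (8.83% of all genes called), led by GATA6 at 0.75 and NR3C1 at -0.70. In DMSO, limma called none of the 38 between the lines, beside 0.644% of all genes (4 had an unadjusted p under 0.05). For Nutlin in sh-p53 it also called none, beside 0.0796% of all genes (2 under 0.05).

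Genes that FXR, SHP and LRH-1 are known to control, 22 of 31 of them tested and NR0B2 among them, were counted next. With Nutlin in sh-con, 8 rose and 1 fell (median 0.19, against 0.01 over all genes), where 30.3% of all genes were called. In sh-p53 1 rose and none fell, where 0.0796% of all genes were called. SHBG, the sex hormone carrier, had 6.04 and 5.66 in sh-p53 with Nutlin against 7.60 and 7.51 in sh-con with Nutlin, and 5.29 and 5.50 in sh-p53 with DMSO against 5.84 and 5.88 in sh-con with DMSO. It rose by 1.69 with Nutlin in sh-con (adjusted p = 1.24e-07), and its Nutlin response differed between the lines by -1.24 (adjusted p = 0.000883). SLC51B, a bile acid exporter subunit, had 7.0 and 6.74 in sh-p53 with Nutlin against 8.06 and 8.37 in sh-con with Nutlin. It rose by 1.21 with Nutlin in sh-con, and its responses differed by -1.22 (adjusted p = 0.0014). SULT2A1, the sulfotransferase of bile acids and steroids, was the gene called for Nutlin in sh-p53 (1.09, adjusted p = 0.00619) and rose by 0.99 in sh-con. With Nutlin, 2 of the 22 were higher and 9 lower in sh-p53 than in sh-con (21.4% of all genes called), and with AICAR none was higher and 6 lower (8.83% of all genes). In DMSO, UGT2B4 (-1.01) and SULT2A1 (-0.91) were lower in sh-p53 (0.644% of all genes called). With AICAR, 2 rose and 4 fell in sh-p53, and 3 rose and 3 fell in sh-con, beside 37.8% of all genes called in each line.

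**Figure D4:**
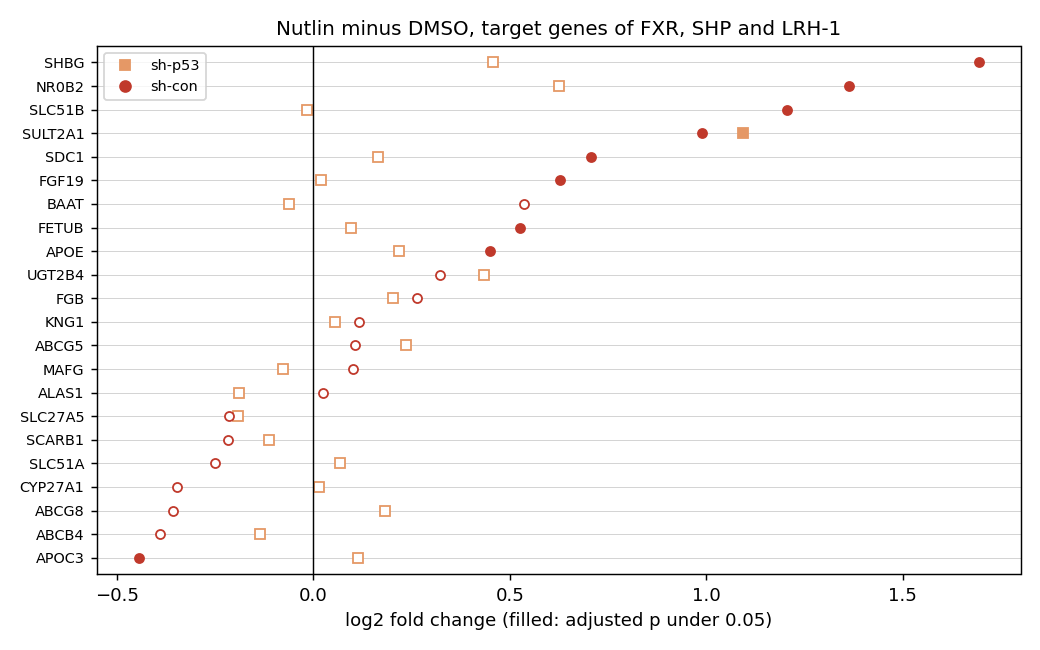
Nutlin responses (log2 fold change against DMSO) of the FXR, SHP and LRH-1 target genes tested, in sh-p53 and sh-con. SHBG, NR0B2 and SLC51B stand at 1.69, 1.36 and 1.21 in sh-con, and SULT2A1 stands at 1.09 in sh-p53 and 0.99 in sh-con.

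Of 32 genes taken as HNF4A targets, 22 were tested. Between the lines, 2 were higher and 6 lower in sh-p53 with Nutlin (21.4% of all genes called). With AICAR 1 was higher and 6 lower in sh-p53 (8.83% of all genes called). In DMSO limma called 1, APOM, with a log2 change of -0.84 in sh-p53 (0.644% of all genes called). With Nutlin in sh-con, 4 rose and 2 fell, a share close to the 30.3% of all genes called there. In sh-p53 none was called by limma and none had an unadjusted p under 0.05, beside 0.0796% of all genes called. G6PC1, the glucose-6-phosphatase of gluconeogenesis, was lower in sh-p53 than in sh-con with Nutlin (log2 change -2.26, adjusted p = 2.78e-09), while MTTP, which loads lipid onto apoB, was higher by 2.28. Their Nutlin responses differed between the lines by -1.81 (adjusted p = 1.03e-05) and 2.11 (adjusted p = 4.07e-06). With AICAR, 2 rose and 2 fell in sh-p53, and 5 rose and 2 fell in sh-con (37.8% of all genes called in each). G6PC1 rose by 0.92 in sh-p53 and by 1.70 in sh-con (adjusted p = 1.5e-07). SLC2A2, the hepatocyte glucose transporter, fell by 1.98 in sh-p53 and fell by 1.50 in sh-con.

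Of 25 genes taken as FOXA and CEBPA targets, 18 were tested. Between the lines with AICAR, 1 was higher and 7 lower in sh-p53 (median -0.30, against 0.03 over all genes), beside 8.83% of all genes called. With Nutlin 2 were higher and 4 lower in sh-p53 (21.4% of all genes called). In DMSO limma called none between the lines (0.644% of all genes), and 4 had an unadjusted p under 0.05, all lower. With AICAR, 1 rose and 8 fell in sh-p53 (median -0.22, against 0.07 over all genes), and 3 rose and 7 fell in sh-con (median -0.13, against 0.04), beside 37.8% of all genes called in each line. IGFBP1, a secreted binder of insulin-like growth factors, fell by 3.20 in sh-p53 and fell by 1.86 in sh-con, and the difference of these responses was called (-1.35, adjusted p = 0.0426). HAMP, the iron hormone hepcidin, fell by 1.78 in sh-p53 and fell by 1.90 in sh-con. ABCC2, a canalicular exporter, fell by 1.50 in sh-p53 and fell by 1.17 in sh-con. With Nutlin in sh-con, 5 rose and 3 fell (30.3% of all genes called), and in sh-p53 none was called by limma while 1 had an unadjusted p under 0.05 (0.0796% of all genes called). The acute-phase protein HP fell by 1.33 with Nutlin in sh-con, and its Nutlin response differed between the lines by 1.54 (adjusted p = 0.00187).

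The hepatocyte markers as a group had summed linear levels of 44288 to 47807 in sh-p53 with Nutlin against 48660 to 49376 in sh-con with Nutlin, and 41115 to 44365 in sh-p53 with AICAR against 46751 to 50222 in sh-con with AICAR. With DMSO the sums were 41046 to 44633 in sh-p53 against 46049 to 49691 in sh-con. The sums were lower in sh-p53 in each treatment, and so were those of the cholangiocyte and progenitor markers. With DMSO the latter were 15920 to 17065 in sh-p53 against 17535 to 18701 in sh-con. Of the 16 hepatocyte markers limma called none between the lines in DMSO, beside 0.644% of all genes. There 4 had an unadjusted p under 0.05, and all of them were lower. Between the lines with Nutlin 1 rose and 2 fell in sh-p53, beside 21.4% of all genes called. With AICAR none rose and 4 fell, beside 8.83% of all genes called: HP (-1.44), CPS1 (-0.65), APOH (-0.55) and AMBP (-0.53). Among 12 cholangiocyte and progenitor markers tested, none rose and 4 fell with AICAR in sh-p53, and 2 rose and 2 fell in sh-con. Of all genes, 37.8% were called with AICAR in each line. LGR5, a Wnt-linked stem cell receptor, changed by -1.34 in sh-p53 and -1.61 in sh-con, and PROM1 by -1.26 in sh-p53 and -1.65 in sh-con. SOX4 (0.68) and EPCAM (0.53), the epithelial adhesion molecule, were the genes that rose in sh-con. Of 7 leukocyte markers, PTPRC, the common leukocyte antigen, lay at the 2.84th percentile of genes and LYZ, lysozyme, at the 99.9th percentile. Of the 3 leukocyte markers tested, CD14 rose with AICAR by 0.48 in sh-p53 and by 0.93 in sh-con, and CD68 rose by 0.89 in sh-p53 and by 0.59 in sh-con. CD14 also rose by 0.92 with Nutlin in sh-con. The shares of all genes called were 37.8% with AICAR in each line and 30.3% with Nutlin in sh-con. Their part in the results on the transcription factors was not tested.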

How the data were processed

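Total RNA (200 ng per array) from HepG2 cells plated at 700000 per well was measured, per the labels' protocols, on the Human Gene array of Affymetrix. The deposited values are on the log2 scale, 1 per probe set and array, from 2.14 to 14.33. The submitters' processing notes name RMA, which corrects background, normalises by quantiles and summarises probes, and Partek; the settings, and the genome build of the array, are not given in the sources used here. By its design RMA pulls arrays towards a common distribution and understates changes of dim genes. Of 33297 probe sets, 19460 had 1 gene symbol, 1754 had several and 12083 were unlisted and are unnamed here. A gene was measured by its brightest single-symbol probe set, and genes whose mean lay under the 25th percentile (4.58) were left out.

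Groups were taken from the sample titles. One model of the 6 group means over the 12 arrays was fitted with limma 3.58.1 under R 4.3.3, the package data.table (version 1.17.8) reading the files. It had 6 residual degrees of freedom and a prior adding 11.3. The 11 comparisons were tested 2-sided: the lines within each treatment, each compound against DMSO and Nutlin against AICAR within each line, and each compound's response in sh-p53 minus that in sh-con. Adjusted p-values are Benjamini-Hochberg over all genes tested, called under 0.05. The p-values measure the spread between duplicates, and 2 arrays per group limit the precision. Statements that arrays did or did not overlap are descriptions of 2 arrays per group and not tests. Changes are measured within a probe set, and percentiles of mean level and summed marker levels are descriptions that cross probe sets. The scripts were tested on simulated data. Replicate numbers were checked for pairing: over 15 pairs of groups, the correlation of same-numbered deviations ran from -0.558 to 0.567, so the numbers were not treated as pairs.

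The members and the lists were chosen with earlier results of these data known. Named were all members, up to 4 called genes with the largest changes per list and comparison, 3 p53 targets as a check, and the 3 genes most like each member that spanned at least 1. Alternatives were quantile normalisation, median centring, other filters, limma-trend, a replicate block, fits of only the compared groups and leaving out each array. Normalisation and centring over the genes tested were added later, with the data in view.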

Additional observations from a re-analysis of the deposited data

Results flagged for a closer look

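The response of NR0B2 to Nutlin was called as different between the lines, close to the threshold. The interaction, the Nutlin change in sh-p53 minus that in sh-con, was -0.74 ± 0.22 on the log2 scale (limma, adjusted p = 0.0451), from changes of 0.62 in sh-p53 and 1.36 in sh-con. The call was lost with arrays centred on their median (limma, adjusted p = 0.0854) and with no filter on dim genes (0.0517). With 1 array left out the interaction ran from -0.89 to -0.59, and the call was lost in most of these fits. Both sh-con arrays with Nutlin lay above both sh-p53 arrays with Nutlin, which describes the lines under Nutlin and not the interaction. The cause was not tested.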

How the results depend on the processing

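Over all alternatives no member changed direction with a call, 1099 single-gene values stayed on their side of the threshold, 13 gained a call and 22 lost one. The NR5A2 difference between the lines stayed called throughout, with a log2 change of 1.35 to 1.48 in DMSO. The 1 member called for the Nutlin response between the lines fell to 0 with arrays centred on their median (NR0B2 adjusted p = 0.0854) and with no filter on dim genes (0.0517). The 0 members called for Nutlin in sh-p53 became 1, NR0B2, with limma-trend and with only the arrays of the groups compared. Leaving out 1 array gave 0 to 1 members for the Nutlin response between the lines, 2 to 4 for AICAR in sh-p53, 1 to 2 for Nutlin in sh-con and 2 to 3 for Nutlin against AICAR in sh-p53. The replicate block left the number of members called as it was in each of the 11 comparisons (1 for the lines in DMSO, where all-gene calls were 107 against 89). Centring over the genes tested moved AICAR changes by 0.05 in sh-p53 and 0.11 in sh-con. Centring on the median of all probe sets moved them the other way, by -0.15 in sh-p53 and -0.14 in sh-con. It also moved the share of higher calls with AICAR to 23.1% against 42.8% in sh-p53 and to 22% against 38.7% in sh-con, for Nutlin against AICAR in sh-p53 to 69.2% against 55%, and for the AICAR response between the lines to 16.9% against 30%. Counts of calls over all genes moved by over 1.5 times in places. Apart from arrays left out, they ran from 67 to 175 for the lines in DMSO (89 in the fit reported), from 850 to 2043 for the lines with AICAR (1219), from 10 to 67 for Nutlin in sh-p53 (11) and from 89 to 456 for the AICAR response between the lines (140). With 1 array left out, they fell as low as 42 for the lines in DMSO, 1716 with Nutlin and 521 with AICAR, 5 for Nutlin in sh-p53 and 2061 in sh-con (4179), 3361 for AICAR in sh-p53 (5217) and 3173 in sh-con (5221), and 653 for the Nutlin (1022) and 40 for the AICAR response between the lines. The causes were not tested. Values near the threshold are limited by 2 arrays per group, and RMA gives no detection call.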
